A study of Mus musculus with 6 samples.

Results

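The platelet receptor for von Willebrand factor, the GPIb-IX-V complex, was followed through the genes of its 4 subunits, Gp1ba, Gp1bb, Gp9 and Gp5. Transcript levels were read in mouse megakaryocytes, the platelet-forming cells, cultured from E13.5 fetal livers. Cultures without p45, which is the product of Nfe2 and the larger chain of the NF-E2 transcription factor (p45-/-), were set beside wild-type cultures (WT). The mice of both groups were C57BL/6, and each group had 3 samples, described by the submitters as independent experiments and each read on 1 single-colour array. The labels used here name no agent, do not say which part of the gene was deleted or whether fetal livers were pooled, and one of their protocols speaks of whole embryos as the RNA source. The subunits were found as the non-control probes whose RefSeq accession belongs to 1 of the 4 symbols. This gave 4 probes, 1 for each gene, of 41174 probes on the array. All 4 were well above background on all 6 arrays and none was removed by the filter on dim probes, which left 18211 genes to test.

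In platelets, GPIbα, encoded by Gp1ba, is the subunit that binds von Willebrand factor and catches flowing platelets on injured vessel walls. It is joined by disulfide bonds to GPIbβ, encoded by Gp1bb, and both hold GPIX, encoded by Gp9, without covalent bonds. GPV, encoded by Gp5, is attached more loosely and is cut by thrombin. In humans, loss of GP1BA, GP1BB or GP9 causes the bleeding disorder Bernard-Soulier syndrome, whereas GPV is not needed for the other chains to reach the surface. All subunits belong to the leucine-rich repeat proteins. NF-E2 is required in mice for megakaryocytes to release platelets.

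Stretches upstream of each gene's annotated start are shown because the transcripts are compared as a set and because GATA factors and ETS factors, with FOG1 as a GATA partner, are known regulators of megakaryocyte genes. They come from RefSeq on the assembly GRCm38.p6, which held all 4 genes, and are written 5′ to 3′ on the gene's own strand. Capitals mark, on either strand, the letters of a GATA motif or of an ETS motif. The GATA letters searched were AGATAA and, with a different first base, TGATAA, together with AGATAG and likewise TGATAG. The ETS letters searched were AGGAAG and also, with a different first base, CGGAAG. Bases inside an annotated gene were left out, apart from windows of 30 bases around a match for Gp1bb and Gp9. The upstream bases of Gp1bb lie inside Septin5, and those of Gp9 inside its own annotated gene span. The starts used for Gp9 and Gp1ba both lie inside the gene's own annotated span. The Gp1ba stretch therefore stops at -21, so its ETS match at -16 and its GATA match at -23 are not marked.
Gp1ba, chr11:70638872-70639101, plus strand: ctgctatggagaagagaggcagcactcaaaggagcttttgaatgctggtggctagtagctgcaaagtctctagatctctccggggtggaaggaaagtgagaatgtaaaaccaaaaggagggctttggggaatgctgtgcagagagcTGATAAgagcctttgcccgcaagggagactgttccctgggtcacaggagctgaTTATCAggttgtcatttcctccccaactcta
Gp1bb, GATA match, chr16:18622408-18622437, minus strand: gcacctccccgcCTATCAtaagggaacaag
Gp1bb, ETS match, chr16:18622476-18622505, minus strand: catttgtatctgCTTCCGagtgctctgaat
Gp9, ETS match, chr6:87778040-87778069, plus strand: attttcaccatttcCTTCCTcctgtcaggc
Gp5, chr16:30310782-30311031, minus strand: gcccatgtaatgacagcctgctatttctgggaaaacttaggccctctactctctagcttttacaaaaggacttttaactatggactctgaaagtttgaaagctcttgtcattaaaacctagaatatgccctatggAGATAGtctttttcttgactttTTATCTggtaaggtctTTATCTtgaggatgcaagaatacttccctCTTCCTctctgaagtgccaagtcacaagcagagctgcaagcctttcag

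Within 250 bases upstream, the GATA letters occurred 3 times in Gp1ba, 3 times in Gp5, 1 time in Gp1bb and 0 times in Gp9. The ETS letters occurred 1 time in each gene, beginning at position -16 from the start in Gp1ba and in Gp9, at -48 in Gp5 and at -90 in Gp1bb. Of 32851 RefSeq promoter windows of the same length, 26.5% held the GATA letters, 39.2% the ETS letters and 9.2% both. The letters TGAGTCA or TGACTCA, the core of the NF-E2 motif, were in none of the 4 windows and in 4.5% of all windows. The RUNX letters TGTGGT were in 1 of the 4, Gp9, and in 14% of all. The motifs were chosen after these sequences were seen, so the shares of all windows cannot show that the 4 genes are unusual. These matches are letters in a window and were not tested as binding sites.

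The arrays differed in brightness, with a 75th percentile of the processed signal between 135, on p45-/- array 1, and 589, on p45-/- array 3. Unless called a processed signal, each level below is a log2 processed signal minus that percentile of its own array, called a scaled level. Array 1 of p45-/- stood apart, with correlations across genes of 0.782 to 0.884 to the other arrays, which correlated with each other at 0.941 to 0.984. Differences in level of the 4 subunits are given with and without it. They are also given without replicate 1 of both groups, since the arrays numbered 1 deviated together from their group means (r = 0.647). Treating same-numbered arrays as pairs rests on these data. Differences of all other genes are given with all 6 arrays only. Nfe2 itself, read by a probe whose place relative to the deletion is not known, was at 4.87, 6.43 and 6.34 on the p45-/- arrays (replicates 1, 2 and 3) against 5.24, 6.57 and 6.33 on the WT arrays, and this probe does not check the genotype labels. A set of 6 megakaryocyte markers, among them Itga2b, Itgb3, Pf4, Ppbp and Vwf, was well above background on all 6 arrays. Their summed level was 9.67 to 10.47 (log2) in p45-/- and 9.83 to 10.29 in WT. The arrays read RNA of whole cultures, in which fewer megakaryocytes and less RNA per megakaryocyte cannot be told apart.

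All 4 subunit transcripts had a lower mean in the arrays labelled p45-/-, as did 53.5% of all genes. None of these 4 differences passed limma's test. The difference was widest for Gp5 and close to 0 for Gp1bb. The p45-/- and WT arrays overlapped for all 4, whereas 8.43% of all genes were lower and 4.77% higher without overlap. Within same-numbered pairs of arrays, 3 of the 4 subunits were lower in p45-/- in every pair, as were 23.6% of all genes. In limma's test over all 18211 genes, 0 of the 4 subunits passed, where 0% of all genes passed in either direction. At an unadjusted p under 0.05 it was again 0 of the 4, with 3.33% of all genes lower and 2.62% higher at that level. With the replicate number as a block 0 of the 4 passed as well, where 0.0275% of all genes passed as lower. In that fit 2 of the 4, Gp5 and Gp9, lay under an unadjusted p of 0.05, a level that 5.96% of all genes reached as lower and 14.3% as higher.

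Gp5, encoding the loosely attached GPV, gave processed signals of 539, 11304 and 9746 on the p45-/- arrays (replicates 1, 2 and 3) against 4645, 27111 and 25622 on the WT arrays. Its scaled levels were 1.99, 4.80 and 4.05 in p45-/- and 3.78, 5.54 and 5.48 in WT. Array 1 of p45-/- was far below all others, while p45-/- arrays 2 and 3 lay between WT array 1 and the other WT arrays, so the groups overlapped. The means were 3.61 ± 1.45 (SD, n = 3) and 4.93 ± 1.001 (SD, n = 3). The group means differed by -1.32 (SE 0.83; 95% interval, -3.31 to 0.68; limma adjusted p = 0.704), and with the replicate block its limma adjusted p was 0.131. In each same-numbered pair Gp5 was lower in p45-/-, by differences of -1.78, -0.74 and -1.43. Without p45-/- array 1 the difference was -0.51, and without replicate 1 of both groups it was -1.09.

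Gp9, encoding GPIX, which stabilises the receptor at the surface, gave processed signals of 3229, 48085 and 58847 on the p45-/- arrays (replicates 1, 2 and 3) against 16254, 101374 and 90101 on the WT arrays. Its scaled levels were 4.58, 6.88 and 6.64 in p45-/- and 5.58, 7.44 and 7.29 in WT. Replicate 1 was the lowest array of each group, and the groups overlapped. The group means differed by -0.74 (SE 0.78; 95% interval, -2.60 to 1.13; limma adjusted p = 0.759, and 0.228 with the replicate block). The same-numbered pairs differed by -1.01, -0.56 and -0.65. Without p45-/- array 1 alone the difference was -0.0086, and without replicate 1 of both groups it was -0.60.

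Gp1ba, the chain that binds the ligand, gave processed signals of 2358, 24307 and 34921 on the p45-/- arrays (replicates 1, 2 and 3) against 10171, 43506 and 47997 on the WT arrays. Its scaled levels were 4.12, 5.90 and 5.89 in p45-/- and 4.91, 6.22 and 6.38 in WT. The order of arrays was like that of Gp9, with replicate 1 lowest in both groups and with overlap. The group means differed by -0.53 (SE 0.64; 95% interval, -2.06 to 0.999; limma adjusted p = 0.785, and 0.371 with the replicate block). Pairs 1, 2 and 3 differed by -0.78, -0.32 and -0.49. Without p45-/- array 1 alone the sign turned, to 0.058, and without replicate 1 of both groups the difference was -0.41.

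Gp1bb, the disulfide-linked partner of GPIbα, gave processed signals of 934, 12847 and 13859 on the p45-/- arrays (replicates 1, 2 and 3) against 2523, 16482 and 16816 on the WT arrays. Its scaled levels were 2.79, 4.98 and 4.56 in p45-/- and 2.90, 4.82 and 4.87 in WT. The values of the 2 groups interleaved. The group means differed by -0.088 (SE 0.77; 95% interval, -1.94 to 1.76; limma adjusted p = 0.973, and 0.896 with the replicate block), and the pairs differed by -0.11, 0.16 and -0.31. It was 0.57 without p45-/- array 1 alone, -0.077 without replicate 1 of both groups and 0.22 with quantile normalization, so Gp1bb has no settled direction. Exact permutation tests of the single genes, two-sided, gave p = 0.3 for Gp5, p = 0.5 for Gp9 and Gp1ba and p = 0.9 for Gp1bb, where 3 arrays against 3 cannot go below 0.1.

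**Figure D1:**
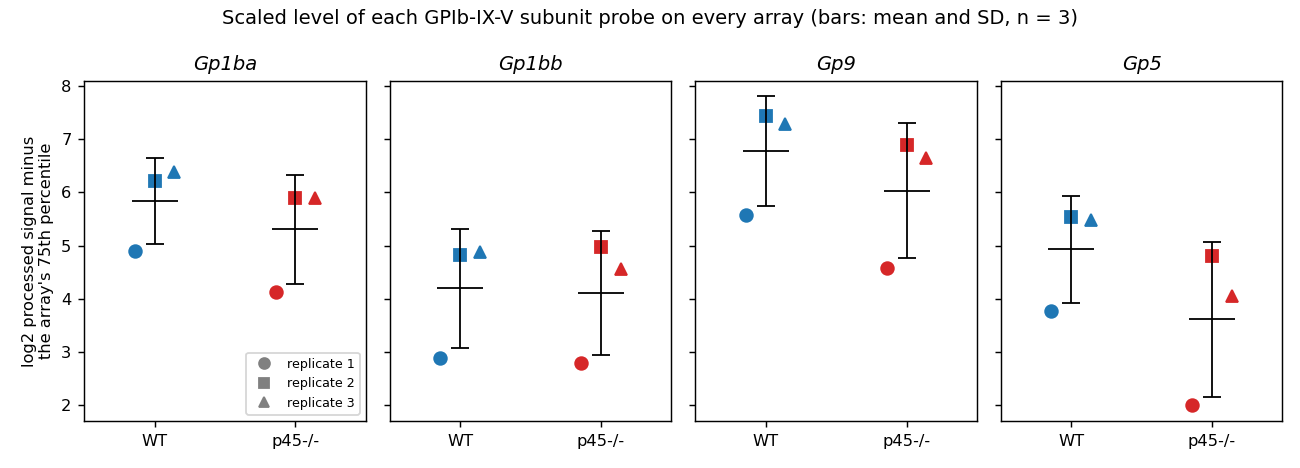
Scaled level (log2 processed signal minus the array's 75th percentile) of each subunit's probe on every WT (blue) and p45-/- (red) array, with the mean and SD of 3 arrays as bars. Replicate 1 is lowest in both groups for every subunit, the groups overlap in every panel, and the mean differs most for Gp5, by -1.32; heights in different panels are different probes and are not comparable.

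The balance of the subunits differed between the groups more evenly across arrays than their levels did. Part of this evenness is built in, because what 2 subunits share across arrays cancels in their difference. Balance was measured as the log2 difference between 2 subunits on the same array, which does not depend on how the array is scaled by a constant. Its absolute value carries the brightness of each probe, so only its change from WT to p45-/- is read. Of the 6 pairs of subunits, 4 had p45-/- values that did not overlap the WT values: Gp1bb stood higher relative to each of the other 3 chains, and Gp5 stood lower relative to Gp9 as well as to Gp1bb. As a background, Gp1bb stood higher without overlap relative to 1.87% of all other genes tested (2.54% in either direction), and Gp5 stood lower relative to 6.58% (6.8% in either direction). Gp1ba stood lower relative to 3.43% and Gp9 relative to 2.93%. The 6 pairs are formed from 4 genes and are not independent. The subunits correlated with each other at 0.850 to 0.992 over the 6 arrays, and these backgrounds were not limited to genes as closely correlated. How unusual the 4 pairs without overlap are was therefore not tested. The balances were tested by exact permutation over arrays, two-sided, in which 3 arrays against 3 cannot go below p = 0.1, so that this test could call no pair at a threshold of 0.05.

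Gp5 against Gp1bb differed most. The within-array difference was -0.79, -0.18 and -0.51 on the p45-/- arrays (replicates 1, 2 and 3) against 0.88, 0.72 and 0.61 on the WT arrays. Every p45-/- array lay below every WT array. The shift was -1.23 (SE 0.19), or 2.35-fold, with an exact permutation p = 0.1, two-sided, and 0.15 after Benjamini-Hochberg adjustment over the 6 pairs. It was -1.08 without p45-/- array 1, -1.01 without replicate 1 of both groups, -1.29 within slide 2 and -1.12 within slide 1, which held 1 array of each group.

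Gp9 against Gp1bb, the GPIX chain against the GPIbβ chain, was 1.79, 1.90 and 2.09 on the p45-/- arrays (replicates 1, 2 and 3) against 2.69, 2.62 and 2.42 on the WT arrays. The gap between the highest p45-/- and the lowest WT array was smaller than for Gp5, but the arrays of each group lay close together. The shift was -0.65 (SE 0.12), or 1.57-fold (exact permutation p = 0.1, adjusted 0.15). Without p45-/- array 1 it was -0.58, within slide 2 -0.81 and within slide 1 -0.34.

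Gp1ba against Gp1bb, the 2 chains joined by disulfide bonds, was 1.34, 0.92 and 1.33 on the p45-/- arrays (replicates 1, 2 and 3) against 2.01, 1.40 and 1.51 on the WT arrays. The highest p45-/- array and the lowest WT array were nearly level. The shift was -0.45 (SE 0.23), or 1.36-fold, with the same exact p of 0.1 and adjusted p of 0.15. It was -0.26 without WT array 1, whose value was the highest, and -0.18 within slide 1.

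Gp5 against Gp9 was -2.58, -2.09 and -2.59 on the p45-/- arrays (replicates 1, 2 and 3) against -1.81, -1.90 and -1.81 on the WT arrays. The WT arrays agreed within 0.1, and p45-/- array 2 came nearest to them. The shift was -0.58 (SE 0.17), or 1.5-fold (exact permutation p = 0.1, adjusted 0.15), and -0.50 without p45-/- array 1.

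The remaining pairs overlapped between the groups. Gp5 against Gp1ba differed by -0.79 (SE 0.33, exact permutation p = 0.2, adjusted 0.24), with p45-/- array 2 at -1.10 just above WT array 1 at -1.13. Gp9 against Gp1ba differed by -0.20 (SE 0.22, exact permutation p = 0.5), and its WT range of 0.68 to 1.22 largely covered the p45-/- range of 0.45 to 0.98. This pair gave the smallest shift of the 6, which does not show that both transcripts changed alike.

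**Figure D2:**
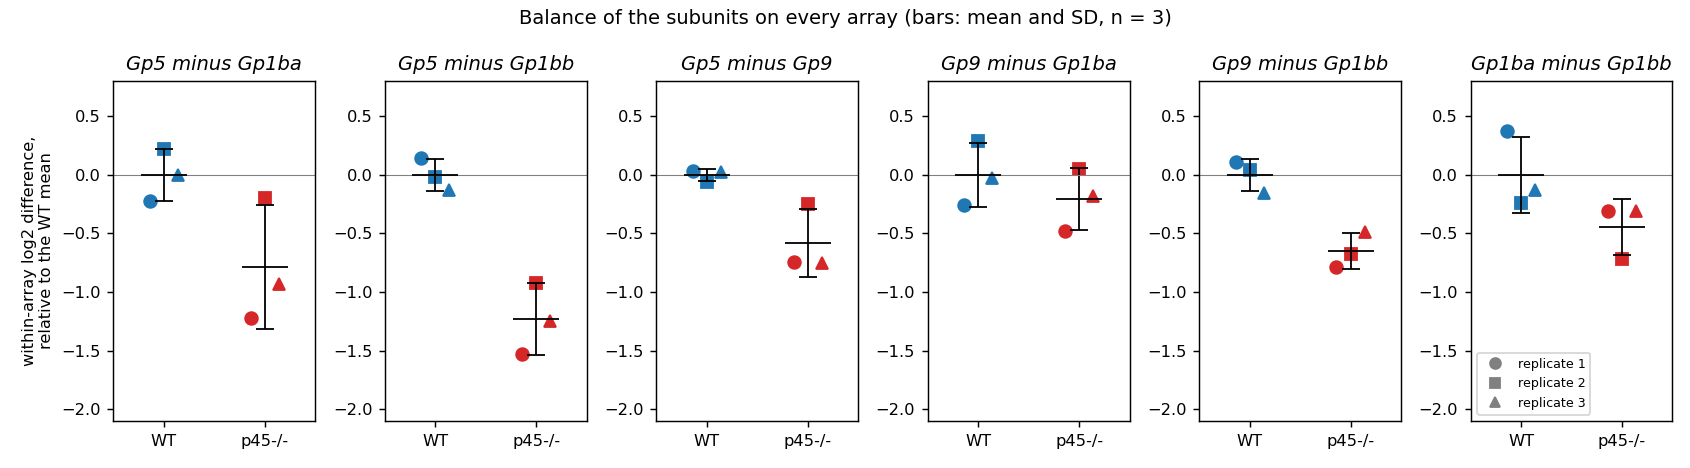
Within-array log2 difference between 2 subunits on every WT (blue) and p45-/- (red) array, set to 0 at the WT mean, with the mean and SD of 3 arrays as bars. The 2 groups are apart for Gp5 minus Gp1bb (shift -1.23), Gp5 minus Gp9 (-0.58), Gp9 minus Gp1bb (-0.65) and Gp1ba minus Gp1bb (-0.45) and overlap for the other pairs.

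**Figure D3:**
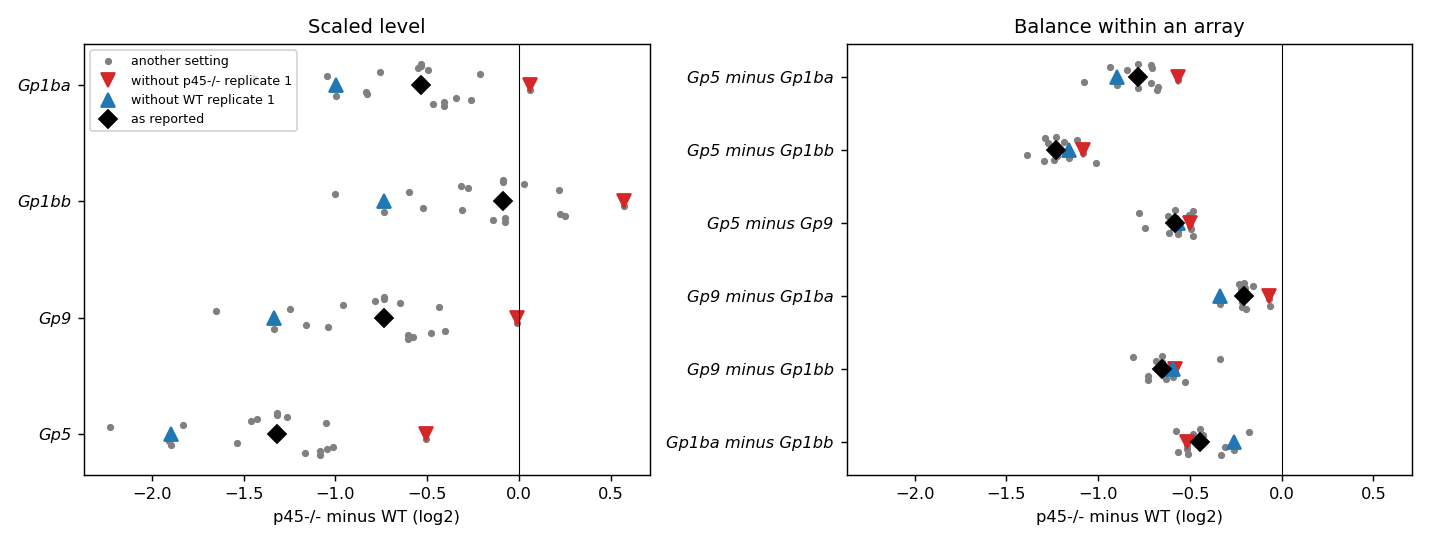
Difference p45-/- minus WT (log2) of each subunit's scaled level, left, and of each pair's balance, right, as reported (black diamond), without replicate 1 of either group (triangles) and under every other setting tried (grey). Without p45-/- replicate 1 the level differences are 0.57 for Gp1bb, 0.058 for Gp1ba, -0.0086 for Gp9 and -0.51 for Gp5, while every balance stays below 0.

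Against other megakaryocyte transcripts, the subunits were set on each array against the mean log2 level of the 6 megakaryocyte markers above. Gp5 minus the markers was -4.04, -2.52 and -2.89 on the p45-/- arrays (replicates 1, 2 and 3) against -2.55, -1.76 and -1.76 on the WT arrays. Array 2 of p45-/- lay just above WT array 1, so the groups overlapped, and the shift was -1.12 (SE 0.53, exact permutation p = 0.2). The groups were apart, at an exact permutation p = 0.1, with quantile normalization (-1.09), with Itga2b as the sole reference (-1.16), without Itgb3 (-1.14) and without Pf4 (-1.07). The shifts of Gp9, Gp1ba and Gp1bb were -0.54 (SE 0.46, exact p = 0.3), -0.34 (SE 0.30, exact p = 0.5) and 0.11 (SE 0.45, exact p = 0.6). Among the markers, Itga2b and Itgb3, whose products together bind fibrinogen, had differences of -0.15 (SE 0.59) and -0.29 (SE 0.39). Pf4 and Ppbp, platelet chemokine genes, had 0.082 and 4.3e-05.

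The cultures also held RNA of other blood cells and of liver cells. All 11 erythroid markers tested of 12 were well above background on every p45-/- array, and their median difference was 1.93. Of the 11, 9 had a higher mean in p45-/-, where 53.5% of all genes had a lower one. Without overlap 6 of the 11 were higher and 0 lower, beside 4.77% and 8.43% of all genes. The summed level of the 11 was 7.10 to 9.97 (log2) in p45-/- and 6.89 to 8.55 in WT. It was highest on p45-/- array 1 and, within WT, on array 1, the same arrays on which the 4 subunits were lowest. The sum adds linear levels and so leans on the brightest marker, Hba-a1, with mean levels of 7.80 in p45-/- and 7.25 in WT. Hba-a1, an alpha globin gene with near-identical copies, differed by 0.56 and Slc4a1, the red cell anion exchanger, by 1.60, both with overlap. The part of this in the subunits' levels was not tested. All 7 neutrophil markers tested had a lower mean, where 53.5% of all genes did. Their median was -0.81, with sums of 7.86 to 8.44 in p45-/- against 8.56 to 9.25 in WT. Among them Mpo, myeloperoxidase, was at -0.81 without overlap, where 8.43% of all genes were lower without overlap. The 6 hepatoblast markers tested were higher in mean, where 53.5% of all genes were lower in mean. Their median was 1.20, and Alb, albumin, was at 1.21. The medians of the macrophage, endothelial, stromal, and mast cell and basophil markers were 0.33, 0.40, 0.52 and -1.20. None of these marker genes passed limma's test over all genes, with or without the replicate block.

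Genes that work with the receptor were read from lists that hold its ligands, partners, signalling, maturation and regulators. Across these lists medians lay between -0.31 and -0.58, against -0.64 for the 4 subunits and -0.048 for all genes, and 0 genes passed limma's test over all genes. With the replicate block 2 passed, the collagen receptor gene Gp6 and the podoplanin receptor gene Clec1b. Without the block, 14 of the 99 genes tested on these 7 lists lay under an unadjusted p of 0.05 as lower and 2 as higher, beside 3.33% and 2.62% of all genes. Fyn, Adam10 and Tal1 were not matched by symbol, and Adamts13 and Itga2 did not pass the filter on dim probes.

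Of 9 ligands and counter-receptors, 5 had a lower mean, beside 53.5% of all genes. Vwf, the main ligand, differed by -0.37 (SE 0.63) and Thbs1, thrombospondin 1, by -0.91 (SE 0.52). Selp, encoding P-selectin, a counter-receptor of GPIbα that megakaryocytes store in alpha granules, was at -0.74, -1.20 and 0.81 on the p45-/- arrays (replicates 1, 2 and 3) against 2.29, 1.74 and 3.32 on the WT arrays. Every p45-/- array lay below every WT array, as for 8.43% of all genes. The difference was -2.83 (SE 0.65, limma adjusted p = 0.465, and 0.0512 with the replicate block). Itgam, the alpha chain of the leukocyte integrin Mac-1, differed by -0.51, also without overlap.

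Among 15 cytoplasmic partners 13 had a lower mean, beside 53.5% of all genes. Flna, the actin crosslinker filamin A that ties the tail of GPIbα to the cytoskeleton, differed by -0.89 (SE 0.49), and Ywhaz, the 14-3-3 zeta protein that binds the same tail, by -0.55 (SE 0.35). Calm2, a calmodulin gene whose product binds GPIbβ and GPV, differed by -0.34. In signalling below the receptor 17 of 20 tested genes were lower in mean, again beside 53.5% of all genes. Lyn and Src, kinases of the Src family, differed by -0.75 (SE 0.36) and -0.14 (SE 0.52), Syk, the kinase below ITAM receptors, by -0.23, and Fcer1g, the Fc receptor gamma chain, by -0.67 (SE 0.40). Of these 4, the groups did not overlap for Lyn, where 8.43% of all genes were lower without overlap.

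GPIbα is heavily glycosylated and sulphated on tyrosines. Of 14 enzymes of these steps 10 had a lower mean, beside 53.5% of all genes. St3gal4, a sialyltransferase, differed by -0.34, C1galt1, which builds the core O-glycan, by -0.019, its chaperone C1galt1c1 by -0.74 and the tyrosine sulphotransferase gene Tpst1 by -0.48. Among shedding and cleavage genes 5 of 8 tested were lower in mean, beside the same 53.5% of all genes. Adam17, the protease that sheds GPIbα, differed by -0.46 (SE 0.32), and its partners Rhbdf2 and Rhbdf1 by -1.41 (SE 0.32) and -0.82. Timp3, an inhibitor of the protease, differed by 0.11. The groups did not overlap for Adam17 (limma adjusted p = 0.704, and 0.479 with the replicate block) or for Rhbdf2 (limma adjusted p = 0.462, and 0.122 with the block). Of all genes, 8.43% were lower without overlap.

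All 15 tested transcription factors had a lower mean, where 53.5% of all genes did. Gata1 and its partner Zfpm1 (FOG1) differed by -0.26 (SE 0.50) and -0.25 (SE 0.33). The ETS factor genes Fli1 and Ets1 differed by -0.71 (SE 0.44) and -1.39 (SE 0.33). The groups did not overlap for Ets1 (limma adjusted p = 0.484, and 0.128 with the block), where 8.43% of all genes were lower without overlap.

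Among 18 other platelet receptor genes tested, 16 were lower in mean, beside 53.5% of all genes. Gp6 was at -2.48, 0.28 and -0.65 on the p45-/- arrays (replicates 1, 2 and 3) against 3.55, 6.04 and 5.84 on the WT arrays. Clec1b was at 0.70, 2.30 and 1.85 in p45-/- and at 4.59, 6.82 and 7.03 in WT. For both, the highest p45-/- array lay far below the lowest WT array, unlike any of the 4 subunits. Of all genes, 8.43% were lower without overlap. The differences were -6.09 (SE 0.92, limma adjusted p = 0.288) for Gp6 and -4.53 (SE 0.76, limma adjusted p = 0.331) for Clec1b. With the replicate block the SEs were 0.30 and 0.35, and the limma adjusted p were 0.0167 and 0.0454. Whether these differences exceed those of the subunits was not tested.

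**Figure D4:**
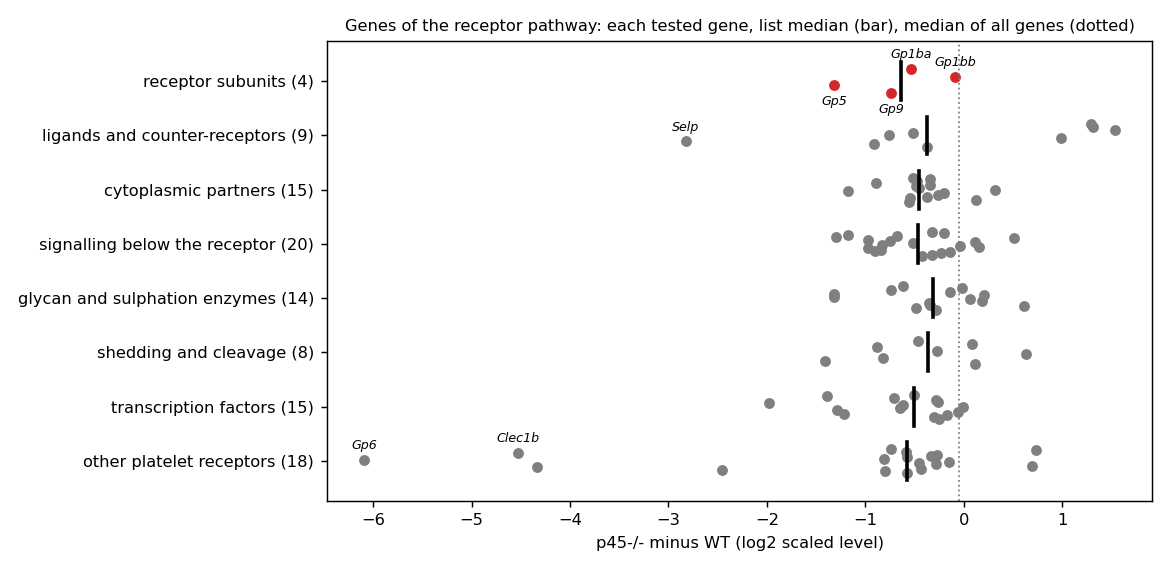
Difference p45-/- minus WT (log2 scaled level) of every tested gene on the lists around the receptor, with the number tested after each name, the list's median as a bar and the median of all genes, -0.048, as a dotted line. The 4 subunits (red) lie between -1.32 and -0.088, inside the range of most other lists, while Gp6 and Clec1b lie at -6.09 and -4.53.

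The genes next to the subunits on the chromosomes were compared with them. Gp1ba lies on chromosome 11 next to Slc25a11, a mitochondrial carrier gene, which differed by -0.52 (SE 0.29) lower in p45-/- without overlap, and Chrne, an acetylcholine receptor subunit gene, which differed by -0.15. Gp5 lies on chromosome 16 next to Atp13a3, at 0.46 (SE 0.29), higher in p45-/- without overlap, and Lrrc15, at 2.55, which 2 of the 3 WT arrays read well above background. Gp9 lies on chromosome 6 next to Rab43, at -0.25. Cldn5, beside Gp1bb on chromosome 16, was at 1.10, and 1 of the 3 WT arrays read it well above background. Of all genes, 8.43% were lower and 4.77% higher without overlap. None of these neighbours passed limma's test over all genes, and Efcc1 and Tbx1 were not tested.

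Gp1bb overlaps Septin5, a septin gene, in the annotation. Septin5 was at 0.24, 1.60 and 1.38 on the p45-/- arrays (replicates 1, 2 and 3) against 0.37, 1.74 and 1.35 on the WT arrays. Like Gp1bb it was lowest on replicate 1 of both groups, and its difference was -0.082 (SE 0.52), beside the -0.088 of Gp1bb. Gp1bb minus Septin5 within an array was 3.04 ± 0.50 (SD, n = 3) for WT arrays and 3.03 ± 0.44 (SD, n = 3) for p45-/- arrays. The files give no position of the probe within the transcript, so whether the probe of Gp1bb also reads longer transcripts of Septin5 was not tested.

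Across the 6 arrays the subunits did not follow each other equally. Pearson's r of the scaled levels was 0.992 between Gp1ba and Gp9, 0.970 between Gp9 and Gp5 and 0.952 between Gp1ba and Gp5. With Gp1bb it was 0.943 for Gp1ba, 0.940 for Gp9 and 0.850 for Gp5. These values share the arrays and the scaling, and replicate 1 was low in both groups. Without p45-/- array 1, Gp1ba and Gp9 stood at 0.977, and Gp5 and Gp1bb at 0.736. The genes whose levels were most like those of Gp1ba over the 6 arrays were Ipo11, Mmrn1 (multimerin 1) and Slc35d3, all at 0.998. For Gp9 they included Hmgcs1 and Tmem263 at 0.998 and 0.997, for Gp5 they were Ywhah, Marchf6 and Tlk1 at 0.997 to 0.998, and for Gp1bb Rpl35a, Marchf2 and Elovl6 at 0.995 to 0.998. Of 12938 other genes with a symbol, Gp9 ranked 36th for Gp1ba, whereas the nearest subunit to Gp1bb, Gp1ba, ranked 409th.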

How the data were processed

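Per the labels' protocols, 500 ng of total RNA was amplified, labelled with Cy3 and hybridised to single-colour Agilent arrays. Per the file headers, Agilent's Feature Extraction 10.7.3.1 produced the spot intensities; version 10.1 appears in the submitters' processing notes. The deposited processed intensity is linear and was background-subtracted and detrended array by array, with no scaling from one array to another. A value table deposited by the authors holds the same intensities, within 0.497% of rounding, with column medians of 20.9 to 42.0. It is neither centred nor a ratio, so it has no direction.

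From these, log2 values were taken, flagged spots (32 to 80 per array) set to missing, spots of a probe averaged and the 75th percentile of each array subtracted. No spot was saturated. Control spots were left out. Probes that every array of 1 group or of both read well above background were kept (23959 probes), and each gene was read by its brightest probe, giving 18211 genes, 12945 with a symbol matched by unversioned RefSeq accession in a GRCm38.p6 table. The comparison used limma 3.58.1 (lmFit, eBayes) under R 4.3.3, two-sided, Benjamini-Hochberg adjusted, threshold 0.05, with 4 residual degrees of freedom. The fit was tested on simulated data. Balance was tested by exact permutation over arrays. Nothing in the labels says that the samples came from separate animals beyond the design's independent experiments, and 6 arrays limit the precision.

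Replicate numbers 1 to 3 occur in both groups. After subtracting group means, arrays of the same number correlated at 0.647, 0.589 and 0.270, all above 0.1; on this evidence from the data they were treated as pairs. Array 3 of p45-/- correlated more with WT array 2, at 0.616, than with its own number. The block leaves 2 residual degrees of freedom. Replicate 3 of both groups lay on slide 1, the other 4 arrays on slide 2.

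The subunits, lists, markers and tests were chosen with earlier results of these data known. Named genes are the subunits, Nfe2, the first 4 tested genes of each list (3 of each marker list) and any gene called, the nearest neighbours of each subunit gene, and the 3 genes most correlated with each. A few genes that this rule names are not reported here. Motifs were chosen after the sequences were seen.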

Additional observations from a re-analysis of the deposited data

How the results depend on the processing

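The differences of Gp5 and Gp9 and all 6 balances kept their sign under each of the alternatives computed, and no subunit passed limma's test under any of them. Several alternatives could not move these values, so their agreement is no evidence of stability. A block left each difference unchanged, each subunit had 1 probe whatever the probe rule, and scaling an array by a constant cancels within a balance. Gp1bb turned to 0.026 within slide 2 and to 0.22 with quantile normalization, and relative to the markers to -0.014 within slide 1. Leaving out 1 array at a time moved Gp1ba between -0.998 and 0.058, Gp1bb between -0.74 and 0.57, Gp9 between -1.33 and -0.0086, Gp5 between -1.91 and -0.51, and Gp1bb relative to the markers between -0.23 and 0.40. Over the same omissions the balance of Gp5 against Gp1bb lay between -1.39 and -1.08 and that of Gp9 against Gp1bb between -0.73 and -0.58. Scaling to the E1A spike-in probes put the all-gene median at -0.96 and the subunits at -2.23 (Gp5), -1.65 (Gp9), -1.45 (Gp1ba) and -1.001 (Gp1bb), and median scaling put the all-gene median at -0.56. The groups of Gp5 against Gp1ba no longer overlapped with quantile normalization (-0.84) or normexp correction (-0.71), with an exact permutation p = 0.1 in each.

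Over all genes, limma called 0 lower and 0 higher. With the replicate block it called 5 lower, with median scaling 10 lower, with spike-in scaling 55 lower and 2 higher, without number 1 of both groups 14 lower and 4 higher, with array weights 511 lower and 657 higher, and without 1 array 0 to 1 lower. The replicate block changed no call of a subunit, and sign flips of the 3 pairs, which cannot go below p = 0.25, gave an exact p = 0.25 for each balance. The blocked fit without number 1 of both groups, an alternative added after seeing the data, called 0 genes (Gp5 at -1.09). Normexp correction used the median spot signal, the raw spot signal read here. The causes of these changes were not tested.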
